A study of Mus musculus with 12 samples.

Results

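The genes described here encode the molecules that display peptides to T cells. They were taken by symbol from the deposited count and TPM tables, one line per gene identifier, and are 10 of the 35498 genes listed there. They comprise 3 class I heavy chains of the major histocompatibility complex (H2-K1, H2-D1 and H2-Q10), the class I light chain B2m, 3 genes of peptide transport and loading (Tap1, Tap2 and Tapbp), and the class II chains H2-Ab1 and H2-Aa with their invariant chain Cd74. Liver mRNA was measured in the wrappER-associated mitochondria (WAM) fraction of 6 mice and in the postnuclear lysate from which each fraction was made. In this fraction the mitochondria still carry the curved rough endoplasmic reticulum (ER), called wrappER, that surrounds them in hepatocytes. Both groups came from untreated male C57BL/6N mice aged 9 to 12 weeks, killed 3 h into feeding after a night without food, and the labels name no genetic change. Each fraction came from whole liver, so hepatocytes and the other cells of the organ were not separated.

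Class I molecules sit on nearly all nucleated cells. Their heavy chain enters the ER membrane during translation, pairs with B2m and waits in a loading complex until the TAP transporter has pumped in a fitting peptide. Class II molecules are made chiefly by macrophages, dendritic cells and B cells, where the invariant chain guides them from the ER to endosomes. An mRNA whose protein begins with an ER signal is translated on ER-bound ribosomes, whereas proteasome subunits, interferon-induced GTPases and transcription factors are made on free ribosomes. The comparison asks how mRNAs of the same pathway divide between the WAM fraction and the whole cytoplasm.

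Of the 10 members, 8 lie on chromosome 17, and 7 had a promoter window in the RefSeq-derived table (GRCm38.p6, 250 bases before to 50 after the annotated start). Windows of the 3 heavy chains, B2m and Tap1 are shown because these genes carry the class I results, and because the Tap1 window is shared with a proteasome gene compared with it below. Capitals mark matches, on either strand, to a kappa B element, the class I interferon response element or a general interferon response form. They also mark the 5 letters of the CCAAT box. The core of the cyclic AMP response element was searched as TGACG. The TATA box, which places the start in many promoters, was searched as TATAAA. No marked match overlaps another in these windows. The windows are H2-K1 at chr17:34000298-34000597 (minus strand, the first of its windows in the table), H2-D1 at chr17:35262844-35263143 (plus), H2-Q10 at chr17:35469839-35470138 (plus), B2m at chr2:122147437-122147736 (plus) and Tap1 at chr17:34187306-34187605 (plus).
H2-K1: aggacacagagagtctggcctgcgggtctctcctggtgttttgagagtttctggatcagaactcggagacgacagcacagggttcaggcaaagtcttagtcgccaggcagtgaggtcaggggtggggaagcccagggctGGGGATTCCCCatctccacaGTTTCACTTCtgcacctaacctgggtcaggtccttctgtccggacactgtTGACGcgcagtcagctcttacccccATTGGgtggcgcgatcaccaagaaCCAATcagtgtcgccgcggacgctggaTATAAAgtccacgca
H2-D1: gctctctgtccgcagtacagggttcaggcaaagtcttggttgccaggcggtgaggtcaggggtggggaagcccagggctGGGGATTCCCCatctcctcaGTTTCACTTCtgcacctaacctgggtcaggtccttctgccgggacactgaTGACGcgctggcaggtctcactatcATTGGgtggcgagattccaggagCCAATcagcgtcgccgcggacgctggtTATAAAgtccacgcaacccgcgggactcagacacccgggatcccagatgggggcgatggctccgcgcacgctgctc
H2-Q10: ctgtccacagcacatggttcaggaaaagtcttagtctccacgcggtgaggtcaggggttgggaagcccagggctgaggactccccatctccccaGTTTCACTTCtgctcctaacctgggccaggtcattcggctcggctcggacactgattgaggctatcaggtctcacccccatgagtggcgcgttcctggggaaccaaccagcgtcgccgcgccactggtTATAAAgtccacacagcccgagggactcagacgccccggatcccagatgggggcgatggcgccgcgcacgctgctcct
B2m: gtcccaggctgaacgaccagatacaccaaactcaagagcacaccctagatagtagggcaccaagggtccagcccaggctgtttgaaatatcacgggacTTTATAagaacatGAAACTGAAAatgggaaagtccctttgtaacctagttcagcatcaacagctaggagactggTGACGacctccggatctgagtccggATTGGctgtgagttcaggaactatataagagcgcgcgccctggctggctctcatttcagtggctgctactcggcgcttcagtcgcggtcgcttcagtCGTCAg
Tap1: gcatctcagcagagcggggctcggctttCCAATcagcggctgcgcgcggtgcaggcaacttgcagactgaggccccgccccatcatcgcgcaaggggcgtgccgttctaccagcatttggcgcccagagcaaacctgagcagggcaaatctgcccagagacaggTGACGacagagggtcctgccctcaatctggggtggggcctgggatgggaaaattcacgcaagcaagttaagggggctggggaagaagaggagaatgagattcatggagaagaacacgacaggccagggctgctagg
Positions count the annotated start as base 1 and the base before it as -1. The kappa B letters begin at -111 in H2-K1 and -171 in H2-D1, and the class I interferon letters at -91 in H2-K1, -151 in H2-D1 and -156 in H2-Q10. H2-K1 and H2-D1 each held 1 kappa B match, which 0.0304% of the 32851 windows in the table hold. All 3 heavy chain windows held the class I interferon element, found in 0.14% of windows. That string was searched as the form known for class I genes, and both shares count these windows too. The matches therefore describe the windows and test nothing. The H2-Q10 window held no match to the kappa B element, the CCAAT box or TGACG, of which the last 2 occur in 37.4% and 20.8% of windows. B2m held 1 match to the general interferon form, at -139, present in 3.44% of windows. Tap1, B2m, H2-K1 and H2-D1 all held CCAAT and TGACG. The TATA box, in 13.6% of windows, began at -26 in H2-D1, -28 in H2-Q10, 36 in H2-K1 and, on the minus strand, -152 in B2m. These are letter matches only.

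Library totals were 8344144 to 9712382 estimated counts in WAM and 7400155 to 12023984 in lysates. The 13 mitochondrially encoded mRNAs took 12.5% to 23.1% of WAM counts and 2.19% to 3.29% of lysate counts, so the scale on which the fractions are set side by side matters. CPM below are counts set relative to library size after TMM scaling, which centres the libraries on the typical mRNA. TPM are the authors' transcript levels, which also correct for length. Of 11181 genes tested with edgeR's quasi-likelihood test, 29.5% were called higher in WAM and 28.8% lower at an adjusted p under 0.05, with a median log2 fold change of -0.08.

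All 10 members were tested and all 10 were called higher in WAM on the TMM scale, with a median log2 fold change of 1.61. All 10 were also at least 2 times higher, as were 16% of tested genes. In 8 of 10 members the CPM of every WAM library lay above that of every lysate, as in 20.3% of all tested genes. These directions are relative to the typical mRNA. With library totals in place of TMM the median of all genes moved by -1.11 and 5 members were called higher, and with the authors' mitochondrial coefficient it moved by -3.43 and all 10 members turned lower. In all the scalings and tools tried with the full set of libraries, each member still stood above at least 90.5% of genes.

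**Figure D1:**
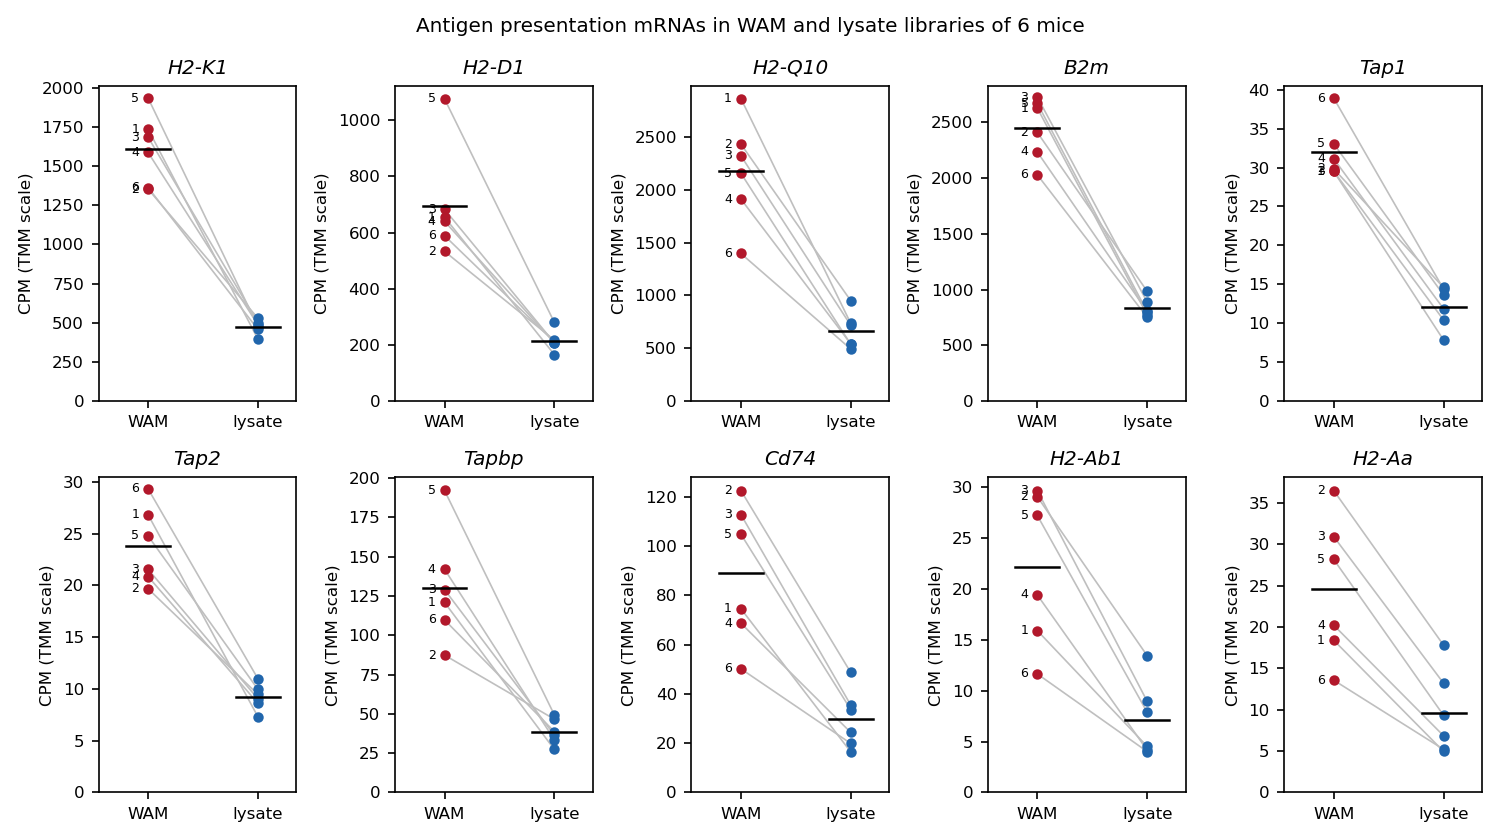
CPM on the TMM scale of the 10 members in each library, WAM on the left and lysate on the right of each panel. Points are single libraries, numbers are mice, grey lines join the libraries of a mouse and black bars are means. In each panel the WAM point of every mouse lies above its lysate point. Of all tested genes, 30.0% were higher in WAM in all 6 mice. Only H2-Ab1 and H2-Aa have overlapping groups.

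The class I heavy chains changed most alike. H2-K1 (ENSMUSG00000061232, chromosome 17, 33996017 to 34000347 in GENCODE M21 on GRCm38, minus strand), a classical heavy chain, had 1353 CPM in the lowest WAM library, a median of 1636 and a highest value of 1935. In lysates it had 395, 480.4 and 528 CPM in the same order. The groups lay far apart, and the log2 fold change of 1.77 (SE 0.12, edgeR adjusted p = 5.95e-08) was larger than that of 99.5% of tested genes. H2-D1 (ENSMUSG00000073411, chromosome 17, 35262730 to 35267499), the other classical heavy chain of this strain, ran from 533 through a median of 648 to 1077 CPM in WAM. Its lysate values were 165, 209 and 279.7 CPM. Mouse 5 was highest for H2-D1 in both fractions, and in WAM it stood apart from the other mice. The log2 fold change of H2-D1 was 1.70 (SE 0.17, edgeR adjusted p = 1.53e-06), and 1.54 without that WAM library. H2-Q10 (ENSMUSG00000067235, chromosome 17, 35470089 to 35474563) encodes a heavy chain without a membrane anchor that mouse liver secretes. It had 1398 CPM in the lowest WAM library, a median of 2241 and a highest value of 2867, against 492, 629 and 950.2 CPM in lysates. The groups did not overlap, the log2 fold change was 1.72 (SE 0.20, edgeR adjusted p = 5.08e-06), and mice 1, 2 and 3 had the 3 highest values in each fraction.

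Some reads of these heavy chains cannot be assigned with certainty. Of the 31-base words in the protein-coding transcripts of H2-D1 (GENCODE M21), 27.6% also occur in other genes, including 13.6% in H2-K1. For H2-K1 the share was 20.3%, with 14.3% also in H2-D1, and for H2-Q10 it was 18.1%, with 7.71% also in H2-Q1. B2m and H2-Aa shared none, and the other 5 members shared between 0.564% (H2-Ab1) and 5.54% (Tapbp).

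B2m (ENSMUSG00000060802, chromosome 2, 122147686 to 122153083), the light chain of every class I molecule, was the most abundant member. It had 2030.15 CPM in the lowest WAM library, a median of 2520.0 and a highest value of 2728, against 750.7, 802 and 985 CPM in lysates. The groups did not overlap and the log2 fold change was 1.56 (SE 0.12, edgeR adjusted p = 1.11e-07). The B2m protein is secreted or held on the cell surface by its heavy chain. Its mRNA was higher in WAM, as were those of the membrane-bound chains. To ask whether any member changed by a different amount, the log2 ratio of each to B2m was compared between fractions, which no scaling can alter. H2-K1 had the largest difference among the heavy chains, 0.21 higher in WAM and higher in 6 of 6 mice, with a range of 0.07 to 0.37 over mice (two-sided exact permutation p = 0.0173, adjusted over the 9 ratios p = 0.156). It was the single ratio of the 9 with an unadjusted p under 0.05. H2-D1 and H2-Q10 were 0.12 and 0.17 higher relative to B2m, also in 6 of 6 mice. With labels exchanged within mice, H2-K1, H2-D1 and H2-Q10 each had an exact p = 0.03125, the smallest that 64 exchanges allow, and an adjusted p = 0.09375. Differences of the remaining 6 members from B2m lay between -0.19 (Tap2) and 0.18 (Tapbp), and their signs varied among mice.

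The TAP transporter and its partner tapasin were much scarcer. Tap1 (ENSMUSG00000037321, chromosome 17, 34187553 to 34197225) and Tap2 (ENSMUSG00000024339, chromosome 17, 34203527 to 34216321) encode the 2 subunits of the pump that carries peptides into the ER. Tap1 had 29.5 CPM in the lowest WAM library, a median of 30.5 and a highest value of 38.9, against 7.83, 12.7 and 14.6 CPM in lysates. Tap2 had 19.7, 23.2 and 29.3 CPM in WAM, against 7.31, 9.26 and 10.98 CPM in lysates. Neither gene overlapped between groups, and mouse 6 had the highest WAM value of both. Their log2 fold changes were 1.40 for Tap1 (SE 0.14, edgeR adjusted p = 1.09e-06) and 1.36 for Tap2 (SE 0.12, edgeR adjusted p = 4.19e-07). Tapbp (ENSMUSG00000024308, chromosome 17, 33915899 to 33929292) encodes tapasin, the membrane protein that holds class I molecules beside the pump. It had 87.4, 125 and 192 CPM as the lowest, median and highest WAM values, against 27.3, 37.6 and 49.3 CPM in lysates, with no overlap. Its log2 fold change was 1.75 (SE 0.19, edgeR adjusted p = 2.28e-06), and its highest library was mouse 5 in both fractions.

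Beside each TAP gene lies a gene for an immunoproteasome subunit, a cytosolic enzyme that cuts the peptides TAP carries. Psmb9 and Tap1 are read in opposite directions from RefSeq starts at 34187330 and 34187556 on chromosome 17, 226 bases apart, so 275 bases of the Tap1 window printed above also belong to the Psmb9 window. The neighbours divided differently between the fractions. Psmb9 had 4.79 to 6.66 CPM in WAM and 3.74 to 7.67 CPM in lysates, with a log2 fold change of 0.16 (SE 0.17, edgeR adjusted p = 0.418). Psmb8, the neighbour of Tap2, had 10.6 to 15.3 CPM in WAM and 9.28 to 17.04 CPM in lysates, with a log2 fold change of 0.05 (SE 0.15, edgeR adjusted p = 0.783). Within a library, the log2 ratio of Tap1 to Psmb9 averaged 2.42 ± 0.22 in WAM and 1.19 ± 0.33 in lysates (SD, n = 6 each), a difference of 1.23. That of Tap2 to Psmb8 averaged 1.00 ± 0.39 in WAM and -0.30 ± 0.37 in lysates (SD, n = 6 each), a difference of 1.30. Both differences had a two-sided exact permutation p = 0.00216, also after adjustment over the 2 ratios, which is the smallest that 924 assignments of the libraries allow. Those assignments ignore that libraries come in pairs from a mouse. With labels exchanged within mice, both had an exact permutation p = 0.03125, also after adjustment, the smallest that 64 exchanges allow. Both ratios were higher in WAM in 6 of 6 mice, by 0.86 to 1.54 for Tap1 to Psmb9 and by 1.13 to 1.85 for Tap2 to Psmb8.

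**Figure D2:**
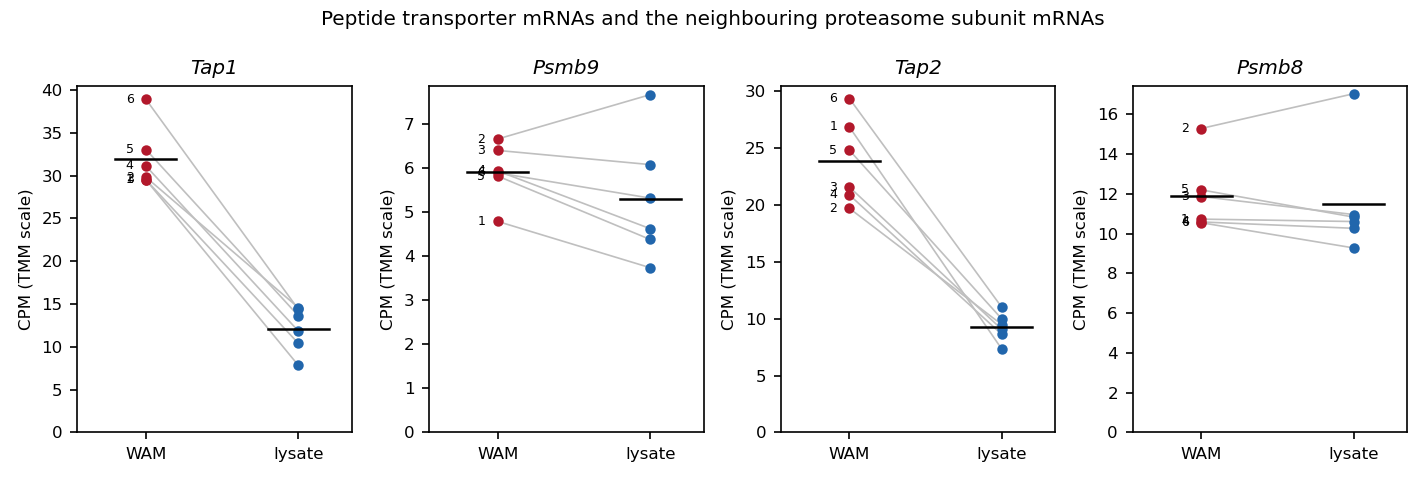
CPM on the TMM scale of Tap1 and its neighbour Psmb9, and of Tap2 and its neighbour Psmb8, in WAM (left) and lysate (right) libraries. Points are libraries, numbers are mice, grey lines join libraries of a mouse and black bars are means. The Tap groups do not overlap, whereas Psmb9 spans 4.79 to 6.66 CPM in WAM and 3.74 to 7.67 CPM in lysates.

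The class II chains and the invariant chain were also higher in WAM, with more spread between mice. Cd74 (ENSMUSG00000024610, chromosome 18, 60803848 to 60812652), the invariant chain, had 50.2 CPM in the lowest WAM library, a median of 89.7 and a highest value of 123, against 16.4, 29.0 and 48.7 CPM in lysates. Its groups just failed to touch, and the log2 fold change was 1.58 (SE 0.27, edgeR adjusted p = 0.000208). H2-Ab1 (ENSMUSG00000073421, chromosome 17, 34257689 to 34269419), the class II beta chain, had 11.7, 23.3 and 29.7 CPM in WAM, against 4.02, 6.21 and 13.4 CPM in lysates. H2-Aa (ENSMUSG00000036594, chromosome 17, 34282744 to 34287823), the alpha chain, had 13.6, 24.2 and 36.5 CPM in WAM, against 4.96, 8.08 and 17.8 CPM in lysates. For both chains the lowest WAM library, mouse 6, lay below the highest lysate, mouse 2, so the groups overlapped. Within every mouse WAM was higher all the same, as for 30.0% of tested genes. The log2 fold changes were 1.64 for H2-Ab1 (SE 0.32, edgeR adjusted p = 0.000539) and 1.38 for H2-Aa (SE 0.32, edgeR adjusted p = 0.00229). With the mouse as a block their SE fell to 0.11 and 0.10.

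The class II spread was largely shared by the libraries of a mouse. The highest library held 2.69 times the H2-Aa CPM of the lowest in WAM and 3.59 times in lysates, against 1.34 and 1.31 times for B2m. In lysates Cd74, H2-Ab1 and H2-Aa were highest in mouse 2, then mouse 3, and in WAM they were lowest in mouse 6. In lysates H2-K1 was also highest in mouse 2, then mouse 3, but in WAM it was lowest in mouse 2, and H2-D1 was highest in mouse 5 in both fractions. Over the 12 libraries, after the mean of each fraction was taken off, the shared class II deviation had a Pearson r of 0.80 with B2m, 0.50 with H2-K1, 0.32 with H2-D1 and -0.23 with Tap2. These values describe 12 libraries that share mice and depth.

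**Figure D3:**
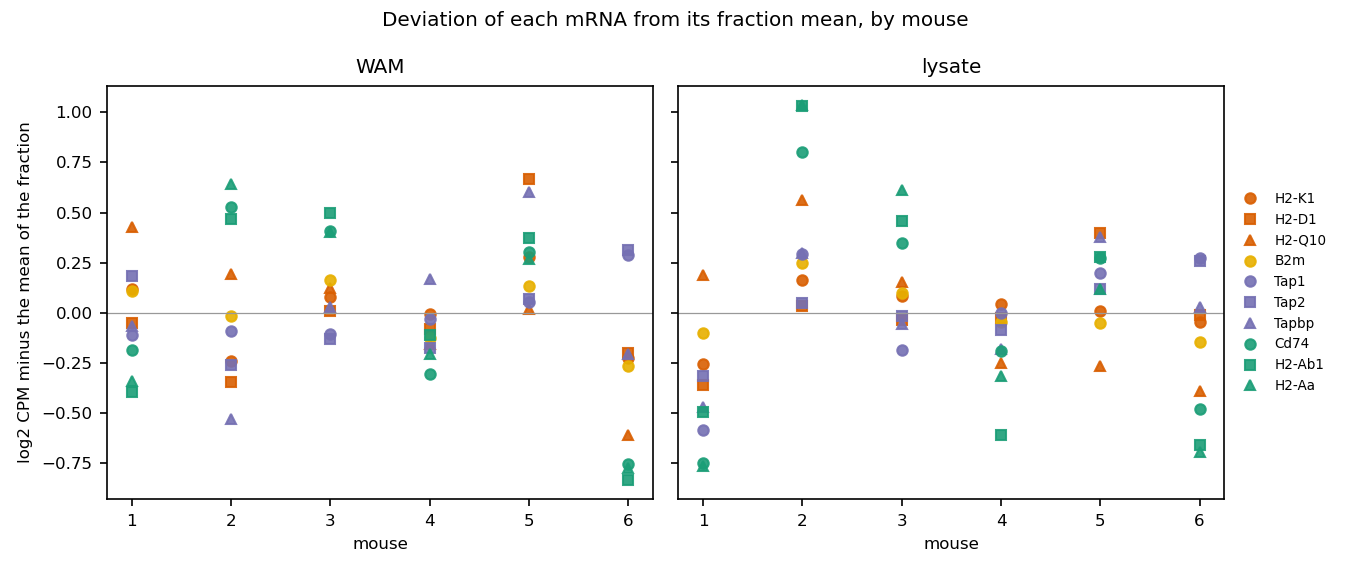
Deviation of each member's log2 CPM from the mean of its fraction (vertical axis) in each mouse (horizontal axis), WAM on the left and lysate on the right. The 3 class II symbols move as a group, low in mouse 6 in both fractions and high in mouse 2, while H2-D1 is highest in mouse 5 in both.

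Among 8635 other genes with at least 5 CPM on average, H2-Eb1, a further class II beta chain, was most like the class II pattern (r = 0.97 over 12 libraries). Xpa, Bclaf1 and Cbx3 were also among the most alike, at r from 0.91 to 0.92. The shared deviation of H2-K1, H2-D1 and B2m was most like that of Pde2a, Flt1, Acvr1b, Mgat5 and Glg1, at r from 0.93 to 0.95. It correlated at 0.87 with Tapbp but at 0.28 with Tap1 and at 0.30 with H2-Q10, the third heavy chain. B2m, itself part of this pattern, correlated at 0.73 with it.

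Per unit length the levels of the members spanned more than 2 orders of magnitude, and the order of the means was the same in both fractions. TPM of B2m averaged 2466 ± 269 in WAM and 2447 ± 148 in lysates (SD, n = 6 each, here and below). H2-Q10 followed with 1145 ± 257 TPM in WAM and 1002 ± 202 TPM in lysates. H2-K1 averaged 771 ± 39.0 TPM in WAM and 666 ± 57.1 TPM in lysates, and H2-D1 255 ± 45.3 TPM in WAM and 232 ± 49.1 TPM in lysates. These first 4 genes did not overlap with their neighbours in the order. From Cd74 downward, neighbours overlapped in at least 1 fraction. Cd74 averaged 56.5 ± 19.8 TPM in WAM and 54.3 ± 19.2 TPM in lysates. Tapbp averaged 38.0 ± 6.16 TPM in WAM and 33.7 ± 7.01 TPM in lysates. The class II chains came next, with H2-Aa at 19.2 ± 6.69 TPM in WAM and 19.9 ± 9.43 TPM in lysates, and H2-Ab1 at 14.6 ± 5.19 TPM in WAM and 13.6 ± 6.28 TPM in lysates. Tap1 averaged 8.80 ± 2.60 TPM in WAM and 9.24 ± 2.53 TPM in lysates, and Tap2 6.69 ± 1.61 TPM in WAM and 7.38 ± 1.12 TPM in lysates. Tap1 lay above Tap2 in 6 of 6 mice in WAM but in 4 of 6 in lysates.

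On the TPM scale, then, the members stood at nearly equal levels in the fractions. Differences in log2(TPM + 1) ran from -0.14 to 0.21, while the median gene was 1.22 lower in WAM on that scale. H2-K1 and H2-Q10 had the higher TPM in WAM in 6 of 6 mice, whereas Tap1 and Tap2 did so in 2 of 6. By limma on log2(TPM + 1) no member passed an adjusted p under 0.05, and 1 of 10 had an unadjusted p under 0.05. Summed TPM of the 3 heavy chains, divided by the TPM of B2m, came to 0.79 to 0.98 in WAM and 0.73 to 0.84 in lysates. H2-Aa to H2-Ab1 stood at 1.22 to 1.42 in WAM and 1.19 to 1.82 in lysates. H2-K1 to H2-D1 had a median of 3.17 in WAM and 3.09 in lysates, lowest in mouse 5 in both.

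**Figure D4:**
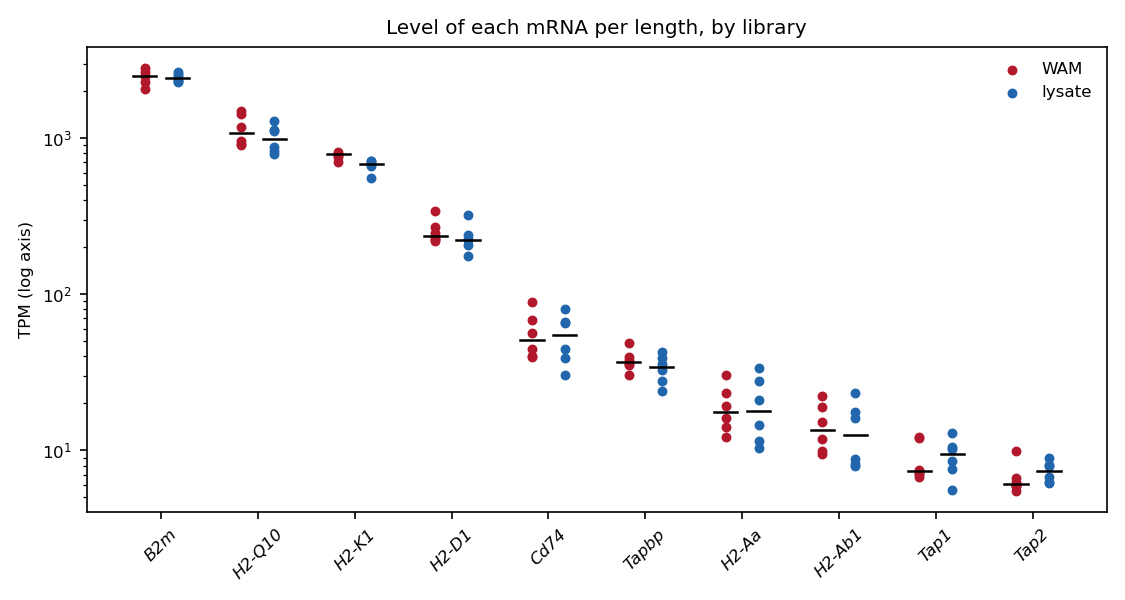
TPM of each member (logarithmic vertical axis) in the 6 WAM libraries (red, left) and 6 lysates (blue, right), with medians as black bars and genes ordered by mean lysate TPM. B2m averages 2466 TPM in WAM and 2447 TPM in lysates, and Tap2, the lowest, averages 6.69 TPM in WAM and 7.38 TPM in lysates.

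The size of the difference varied between mice, and in some mice also between members. Taking log2 CPM with a prior count of 2, the median member was higher in WAM by 1.92 in mouse 1, 1.196 in mouse 2, 1.68 in mouse 3, 1.58 in mouse 4, 1.75 in mouse 5 and 1.46 in mouse 6. Single members ran from 1.26 to 2.165 in mouse 4 and from 1.33 to 1.58 in mouse 6. Mouse 2 had the smallest difference for 9 of the 10 members, for 23.9% of all tested genes and for 65.5% of the 1758 genes whose mean difference was above 1. That mouse also had the lowest mitochondrially encoded share in WAM, 12.5%, and the highest in lysates, 3.29%. Their part in the result was not tested.

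The members sit in a wider pathway, which was described with 7 gene lists. Of the 75 genes tested in those lists, 38 were called higher and 13 lower in WAM (29.5% and 28.8% of all genes). With the mouse as a block 21 were called lower, and the share over all genes was then 36.2%. Of 14 tested further class I and class I-like heavy chains, 13 rose, with a median log2 fold change of 1.40. Azgp1, a secreted class I-like glycoprotein of liver, had 1767 ± 227 CPM in WAM and 634 ± 44.4 CPM in lysates (log2 fold change 1.48, SE 0.11, edgeR adjusted p = 1.11e-07). Cd1d1, which presents lipids, changed by 1.42, and H2-T23, the mouse Qa-1 chain recognised by natural killer cells, by 1.58. H2-T22, named after its values were seen, rose by 0.37, and H2-T10 was the gene that did not pass, at -0.35. Of 12 genes of ER assembly and peptide trimming, 11 rose (median 1.46). Sec61a1, the pore through which nascent chains enter the ER, rose by 1.70, and the chaperones Calr and Hspa5 rose by 1.54 and 1.40. Sec61g, a small subunit of the same pore, stood at 0.46 (SE 0.27, edgeR adjusted p = 0.159).

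The class II side of the pathway moved the same way. Over all tested genes, 29.5% were called higher. The list of class II accessory chains held 7 genes, of which 3 were tested, and all 3 rose. H2-Eb1, itself a class II beta chain rather than an accessory, rose by 1.48. H2-DMa, part of the peptide editor of class II, rose by 1.13 but had at most 26 counts in a library. All 6 tested endosomal proteases, which degrade the invariant chain and antigens, rose (median 1.64), led by Ctsd at 1.81, with Ctsb at 1.69 and Ctsl at 1.53. For each of these 6 genes the direction is, again, relative to the typical mRNA.

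The cytosolic and nuclear parts of the pathway did not share these values. Over all tested genes, 29.5% were called higher and 28.8% lower, the shares to set beside each count below. Of 6 immunoproteasome and proteasome activator genes, Psme2 was called higher (0.33, SE 0.12, edgeR adjusted p = 0.0357) and Psme3 lower (-0.27, SE 0.08, edgeR adjusted p = 0.0082), with a list median of 0.03. Psme2 lost its call in 11 of the 18 fits that left out a library or a mouse. Psme1, the other chain of the same activator, stood at -0.07. Of 14 transcriptional regulators of these genes, 8 fell (median -0.39), among them Creb1 at -0.64 and Irf2 at -0.64, while Nfyb stood at 0.19 (edgeR adjusted p = 0.0689) and was called higher with the mouse as a block. Of 20 interferon-induced genes, 4 rose and 4 fell (median -0.23), both below the shares over all genes. With the mouse as a block 10 fell, and the block called 36.2% of all genes lower. The 4 that rose, named after their values were seen, were Bst2 (1.55), Cxcl10 (1.12), Cxcl9 (1.12) and Igtp (0.86). Bst2 is a membrane protein and Cxcl9 and Cxcl10 are secreted chemokines, whereas Igtp is a GTPase of intracellular membranes. Iigp1, the most abundant of the list in lysates and a cytosolic GTPase, stood at -0.23 (SE 0.18, edgeR adjusted p = 0.283).

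**Figure D5:**
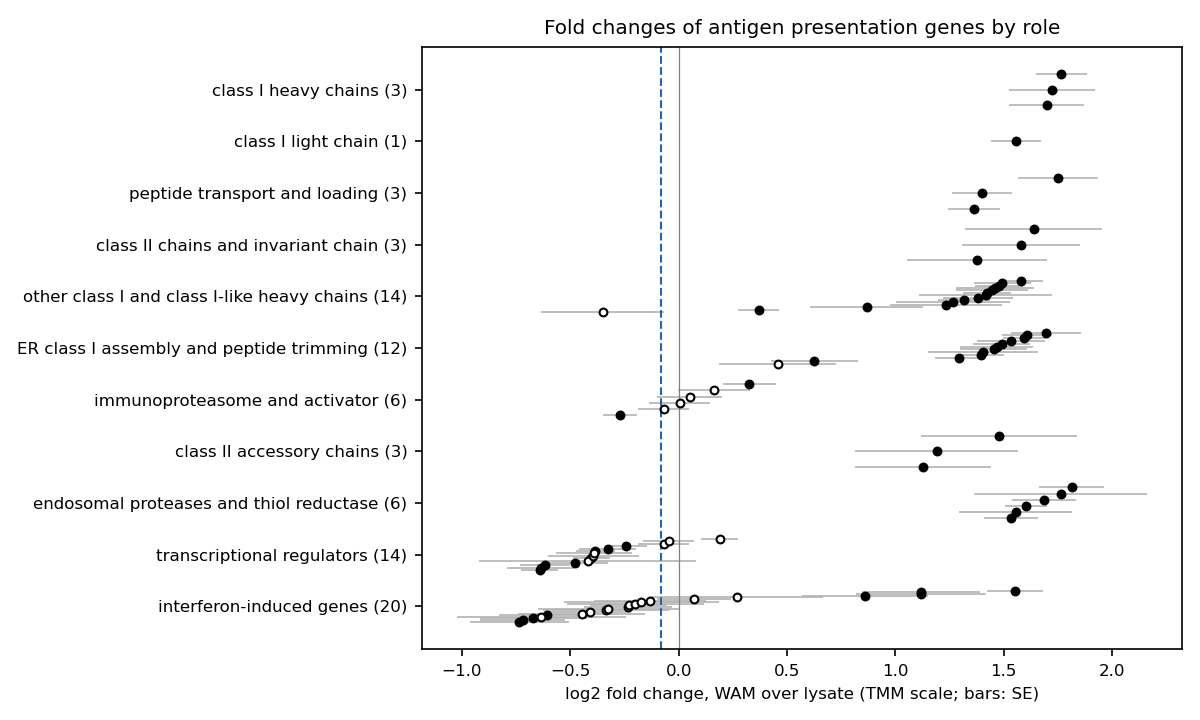
Log2 fold change, WAM over lysate, on the TMM scale (horizontal axis) with SE bars for every tested gene of the members' roles (top 4 rows) and of the 7 pathway lists, with the number tested in brackets. Filled points passed an edgeR adjusted p under 0.05, open points did not, and the dashed line is the median of all tested genes, -0.08. Heavy chains, ER assembly genes and endosomal proteases lie mostly above 1, and proteasome genes and transcriptional regulators near or below 0.

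Macrophages, endothelial cells and other cells of the liver also make MHC molecules. In whole liver, fewer cells of a type and less RNA per cell cannot be told apart. Over all tested genes, 29.5% were called higher in WAM and 28.8% lower, the shares to set beside each marker count here. Of 12 Kupffer cell and macrophage markers, all tested, 11 were called higher in WAM with a median log2 fold change of 1.54. Their summed CPM ranged from 360.3 to 1614 in WAM and from 125 to 482 in lysates. Mouse 5 was highest in both fractions, as it was for H2-D1 and Tapbp. Summed CPM of sinusoidal endothelial, dendritic cell, B cell and neutrophil markers was also highest in mouse 5 in both fractions. Stellate cell and T and NK cell markers were highest there in WAM only, and cholangiocyte markers in neither. Hepatocyte markers were lowest in mouse 5 in both. H2-Ab1 and H2-Aa were highest in mice 2 and 3. All 10 sinusoidal endothelial markers rose (median 1.16), and of 7 hepatocyte markers 6 rose (median 1.28). Of 8 stellate cell markers 6 rose, and of 2 tested cholangiocyte markers 1 rose and 1 fell. Dendritic cell markers summed to 3.83 to 9.01 CPM in WAM and 6.87 to 11.6 CPM in lysates. That sum rested largely on Zbtb46, with 460 counts over the 12 libraries against 106 for the next gene of the list. B cell markers summed to 3.15 to 9.39 CPM in WAM and 3.85 to 9.08 CPM in lysates. A single gene of each of those 2 lists, and of 10 T and NK cell markers, passed the filter on low counts, and of 9 neutrophil markers none did, though no marker was at 0 in all 12 libraries. The tested dendritic cell marker, Zbtb46, a transcription factor, was called lower (-0.40, SE 0.15, edgeR adjusted p = 0.0346), and the tested B cell and T and NK cell markers were not called. The part of these cells in the members' values was not tested.

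The authors' deposited table of WAM enrichment divides WAM TPM by a per-mouse mitochondrial coefficient, then by lysate TPM, and lists 1160 genes with a median of 15.4%. It gives H2-K1 25.7% ± 3.48 (the authors' SEM), rank 52, and H2-Q10 25.1% ± 3.39, rank 57. In the authors' deposited table H2-D1, Tapbp, Cd74 and B2m follow with 24.5%, 24.4%, 23.8% and 22.6%. The 4 scarcest members, Tap1, Tap2, H2-Ab1 and H2-Aa, are not among its genes, for which the file headers give a minimum of 5 TPM after division by the coefficient. Their deposited localisation marks give ER for 5 of the 6 listed members and extracellular space for B2m.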

How the data were processed

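Poly(A) RNA libraries were directional, per the labels' protocols. The authors deposited estimated counts per gene and a table of TPM. The authors' enrichment, per the file headers, is a ratio given in percent: WAM TPM over a mitochondrial coefficient, set against lysate TPM, and their yes-or-no localisation marks were used as other descriptive entries. Tools listed in the submitters' processing notes, with no role, are kallisto 0.44.0, fastp 0.12.4, R 3.5.0 and DESeq2 1.20.0; the build is not given in the sources used here. Another 60 per-sample columns stayed out.

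From 48042 lines of counts, 35498 genes were kept, 1 line each. Of non-zero counts 32.5% were not whole (tolerance 1e-06), so counts were rounded to integers. The gene-wise test was edgeR 4.0.16 (glmQLFit and glmQLFTest, TMM, filterByExpr; R 4.3.3), with Benjamini-Hochberg adjustment over 11181 genes, all 12 libraries and no block. Alternatives used limma 3.58.1 on log2(TPM + 1), with pseudocounts of 0.1 and 5 beside it, DESeq2 1.42.0, other scalings, no filter, unrounded counts, a mouse block, and leaving out libraries and mice. Scripts were tested on simulated data. Ratios were tested by exact permutation in Python 3.11.15 (scipy 1.17.1), with 0.5 counts added. Replicate numbers mark mice: deviations from the group mean correlated at 0.45 to 0.77 between libraries of a mouse and at most 0.40 otherwise, and 6 of 6 WAM libraries matched their own lysate best. Libraries within a group differed beyond sampling noise (chi-square per degree of freedom at least 12.3), and the biological coefficient of variation was 22.2%. Counts carry no molecular identifiers, so depth sets counting error only.

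The members and the gene lists were chosen with earlier results of these data known. Named genes are all members, in each pathway list the 2 tested genes of highest lysate TPM and the largest change, and the 5 genes most like each of the class I and class II patterns, of which 1 is not reported here. Psmb8 and Psmb9 were named in the ratio tests. Any other gene is marked or given as the exception to its list. Positions are GENCODE M21 (GRCm38), matched by Ensembl identifier, which need not be the authors' build. Promoter windows are from RefSeq.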

Additional observations from a re-analysis of the deposited data

Results flagged for a closer look

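Of 20 groups of 6 libraries, the 10 members in each fraction, 1 held a library far from the others. H2-D1 had 1077 CPM in the WAM library of mouse 5, and the gap to the next library was 0.725 of the range of the 6. Chance alone gives about 1 such group in 20. The lysate of the same mouse was also the highest for H2-D1, and the log2 fold change of H2-D1 was 1.62 without both libraries of that mouse.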

How the results depend on the processing

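All 10 members were called higher with DESeq2, with DESeq2 size factors, without rounding or a filter, with median-centred TPM, with the mouse block and in every fit that left out a library or a mouse. Member log2 fold changes over those leave-outs ran from 1.24 (H2-Aa) to 1.91 (H2-Ab1). The scale decided the rest. With library totals 5 members were called higher, with totals less mitochondrially encoded genes 9, and with the authors' coefficient or limma on TPM 0. At an unadjusted p under 0.05 the coefficient also gave 0 and TPM gave 1. Genes called higher and lower numbered 503 and 8652 with library totals, 1121 and 8056 without mitochondrially encoded genes, and 0 and 11127 with the coefficient (0 also at an unadjusted p). They numbered 56 and 9570 for TPM plus 1, 55 and 9569 for plus 0.1, and 56 and 9565 for plus 5. Among the 75 pathway genes the same settings gave 16 and 39, 24 and 37, 0 and 75, and, for each TPM setting, 0 and 43; none was higher at an unadjusted p with the coefficient, or with TPM plus 1 or 5, and 1 with TPM plus 0.1. Medians of all genes moved by -1.11, -0.86, -3.43, -1.14, -1.46 and -0.65 in that order. The coefficient reversed every member: H2-K1 -2.02, H2-D1 -2.09, H2-Q10 -2.05, B2m -2.23, Tap1 -2.24, Tap2 -2.31, Tapbp -2.04, Cd74 -2.16, H2-Ab1 -2.04 and H2-Aa -2.19. On TPM plus 1, 0.1 and 5, Tap1 came to -0.063, -0.069 and -0.045 and Tap2 to -0.135, -0.154 and -0.088. These signs came with a shift of the median, which was not the only change. The distance of Tap1 above the median was 1.48 in the main fit, 1.15 with TPM plus 1 and 0.68 with TPM plus 5. Refits with that shift removed, added after seeing the data, called all 10 members higher in each of the 6 settings. They left 827 genes lower with the coefficient and 2104 with TPM plus 0.1, and 2 and 6 pathway genes lower; with TPM plus 5, Psme2 came to -0.32 and Nfyb to -0.47. The cause was not tested.

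With the mouse as a replicate block, pathway genes called lower numbered 21, and 8 to 14 in the leave-outs, 8 without mouse 3 and 8 without mouse 4. Within mice, pairing left the calls of the 11 ratios as they were. The smallest possible within-mouse p of 0.03125 gave the 9 ratios to B2m little room to pass after adjustment. Pairing moved the exact permutation p from 0.481 to 0.03125 for H2-D1 to B2m and from 0.26 to 0.03125 for H2-Q10 to B2m. The H2-K1 to B2m difference was 0.17 to 0.25 in the leave-outs and passed in 1 of them, without the WAM library of mouse 2 (0.25, exact permutation adjusted p = 0.0195). The Tap1 to Psmb9 and Tap2 to Psmb8 differences stayed at 1.14 to 1.31 and 1.19 to 1.42 in the leave-outs, and were 0.90 and 1.51 as TPM. H2-Ab1 and H2-Aa had 83 to 241 counts per WAM library and 45 to 188 per lysate, and Tap2, with a smaller SE, had 130 to 214 and 84 to 194.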
